A study of Mus musculus with 6 samples.

Results

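The mouse genes named Zfp followed by a number code for zinc-finger proteins. They were taken from the table of counts by symbol alone, and 313 of its 13384 genes bore such a name. The family was selected on its members' log2 fold changes between the genotypes, and 3 of them, Zfp369, Zfp968 and Zfp970, were chosen by their adjusted p-values in the same comparison, so the differences between KO and WT given here for the family and its members are descriptions and not tests. RNA was measured in left ventricles of 3 mice lacking cytoglobin everywhere (Cygb-/-, called KO) and of 3 wild-type littermates (Cygb+/+, called WT), one library for each mouse. All 6 mice, KO and WT alike, had carried an osmotic pump that delivered angiotensin II (Ang II), a hormone that raises blood pressure and loads the heart, at 1.5 mg/kg/day for 2 weeks. The deletion was in every cell of the body, and no mouse without Ang II was analysed here, so the values say nothing of how either genotype responded to the hormone. Cygb itself was not analysed here.

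Most of these proteins carry C2H2 fingers, often in tandem, which are small folds held by a zinc ion between cysteine and histidine pairs. Each such finger can read a few bases of DNA. Many also carry a KRAB box near their start, which recruits the corepressor Trim28 and, through it, enzymes that place repressive histone methylation; these proteins are known above all for silencing retroelements and for keeping genomic imprints. Many KRAB genes have multiplied by tandem duplication and stand in clusters of related copies, some of them near-identical. Members without a KRAB box are a mixed group of transcription factors, chromatin partners, RNA-binding proteins and ribosome-linked proteins. By patterns searched in the coding sequence, 176 members matched a KRAB box, 134 did not, and 3 had no coding model to search. A box that departs from the pattern is missed, so some of the 134 may be KRAB genes. Members without a match are called members without a KRAB box here. The median number of fingers was 12 in members with a KRAB box and 8 in those without. In 9 members the search found 0 C2H2 fingers.

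The coding sequences show why the copies matter for the counts. The stretches given here come from GENCODE M21 transcripts on GRCm38 (mm10), and each codes for 1 finger and the linker after it. Zfp970 (chr2:177464733-177478129, plus strand) and Zfp968 (chr2:175372436-175384201, plus strand) were identical at 95.28% of 1398 aligned coding bases, with a longest identical run of 192 bases. Capitals mark the 3 bases at which these 2 stretches differ.
Zfp970: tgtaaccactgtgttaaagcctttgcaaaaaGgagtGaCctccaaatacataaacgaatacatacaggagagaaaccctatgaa
Zfp968: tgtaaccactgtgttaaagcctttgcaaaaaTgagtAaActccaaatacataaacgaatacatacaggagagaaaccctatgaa
Zfp369 (chr13:65278814-65304221, plus strand) is related to Zfp110 (chr7:12834761-12850577, plus strand). The pair was identical at 91.92% of 2475 aligned coding bases, with a longest identical run of 73 bases. Of the coding 50-base words, 2.09% in Zfp369 and 2.13% in Zfp110 also occur in transcripts of another gene. Capitals again mark the bases that differ, 8 in these stretches.
Zfp369: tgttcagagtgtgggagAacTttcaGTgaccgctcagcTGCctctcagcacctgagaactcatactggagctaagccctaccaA
Zfp110: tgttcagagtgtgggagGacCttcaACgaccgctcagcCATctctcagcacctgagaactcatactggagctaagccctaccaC
Base composition is the second property shown, because the libraries differed in their trend on it. In the next 3 stretches the capitals mark G and C, which make up 38.1% of the Zfp970 finger, 41.67% of the finger of Zfp445 (chr9:122844529-122866006, minus strand) and 69.05% of the finger of Zfp771 (chr7:127244274-127254803, plus strand), a member without a KRAB box.
Zfp970: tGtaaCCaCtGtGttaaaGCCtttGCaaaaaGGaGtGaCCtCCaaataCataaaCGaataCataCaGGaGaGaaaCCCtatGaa
Zfp445: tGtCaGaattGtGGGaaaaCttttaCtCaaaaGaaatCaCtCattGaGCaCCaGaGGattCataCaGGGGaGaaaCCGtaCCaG
Zfp771: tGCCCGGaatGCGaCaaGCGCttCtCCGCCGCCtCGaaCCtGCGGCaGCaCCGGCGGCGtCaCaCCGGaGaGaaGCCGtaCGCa
Of the members, 53 had at least 20% of their coding 50-base words in transcripts of another gene, and 46 of those carried a KRAB box. For these genes the way the authors assigned reads, which is not given in the sources used here, could move counts between copies, so their single values are uncertain.

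The libraries held 23190864 to 30354857 counts, and every gene had at least 12 counts in every library. Summed levels of marker genes, as CPM (counts per 1000000 counts of a library whose total was scaled by edgeR's TMM factor), overlapped between the genotypes for heart muscle, fibroblast, endothelial, mural and red blood cell lists. The 5 heart muscle markers summed to 37450 to 49820 CPM in KO ventricles and to 39790 to 53070 CPM in WT ventricles. All 4 atrial muscle markers were measured, and they summed to 492 to 566 CPM in KO ventricles and to 699 to 3035 CPM in WT ventricles. All 3 mesothelial markers summed to 11.3 to 16.2 CPM in KO ventricles and to 17.7 to 41.5 CPM in WT ventricles, and the 4 macrophage markers to 113 to 142 CPM in KO ventricles and 99.6 to 108 CPM in WT ventricles. The part of these markers in the values that follow was not tested, and in whole ventricle a change in the number of cells of a type and a change in RNA per cell cannot be told apart.

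Across the family the fitted log2 fold changes (KO minus WT) lay above 0 for 206 of 313 members, with a median of 0.14, against 49.4% of all genes and a median of -0.0045. The quartiles of the members were -0.10 and 0.35, and those of all genes were -0.21 and 0.20. Family transcripts took 0.463%, 0.467% and 0.474% of the counts in the KO libraries, against 0.408%, 0.452% and 0.394% in the WT libraries. The groups did not overlap, although WT replicate 2 came close to the lowest KO library. Such shares weigh abundant members most. The family summed to 4724, 4509 and 4942 CPM in KO ventricles, against 4157, 4344 and 3916 CPM in WT ventricles. Of these sums, Zfp106 alone gave 942.4, 807.3 and 990.8 CPM in KO ventricles, against 692.8, 755.5 and 598.7 CPM in WT ventricles. Members whose 3 KO values all lay above the 3 WT values numbered 55, and those with all KO values below numbered 18, where 11.8% and 10.5% of all genes did so. edgeR's quasi-likelihood test, with p-values adjusted by Benjamini-Hochberg over all genes, put 3 members higher in KO, the same 3 that were named when the family was chosen, and 0 lower; 0.0897% of all genes were called higher and 0.0224% lower. At an unadjusted p under 0.05 edgeR counted 52 members higher and 18 lower, where 10.2% and 8.94% of all genes did so. DESeq2 called 14 higher and 1 lower (2.68% and 2.03% of the genes it tested). Among the 14 were Zfp1009, Zfp968, Zfp966, Zfp967, Zfp965, Zfp970 and Zfp971. These stand in 1 array near the end of chromosome 2 and share coding sequence with other genes, so they are not separate findings across the family. The limma-voom calls were 2 and 0 (0.0672% and 0.0374% of all genes), without Zfp369.

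These counts hung on single libraries. Without WT replicate 2, edgeR called 42 members higher and 14 lower, where 7.25% and 6.39% of all genes were called. Calls over the whole table moved as well. Without KO replicate 1 or without KO replicate 3, 0 members and 0.0% of all genes were called higher. Zfp970 was the 1 member left without WT replicate 1 (0.0224% of all genes higher) and without WT replicate 3 (0.0448%), and Zfp369 and Zfp970 were the 2 left without KO replicate 2 (0.0822%). The family median was 0.23 without WT replicate 2 and 0.07 without WT replicate 3.

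Members with a KRAB box by the pattern lay higher than those without a match. Of the 176, 141 had a log2 fold change above 0 and the median was 0.23, while of the 134 without a KRAB box 63 lay above 0 and the median was -0.04. Summed over all members with a KRAB box, levels were 1490, 1436 and 1605 CPM in KO ventricles, against 1063, 1368 and 1089 CPM in WT ventricles. Members without a KRAB box summed to 3221, 3062 and 3327 CPM in KO ventricles, against 3083, 2964 and 2820 CPM in WT ventricles, so that here the groups overlapped. Zfp106, which is among them, gave 807.3 to 990.8 CPM in KO ventricles and 598.7 to 755.5 CPM in WT ventricles. Another 44 genes with a KRAB box and fingers but without a Zfp name had a median of 0.25, and 38 of them lay above 0. The KRAB median was 0.40 without WT replicate 2 and 0.15 without WT replicate 3. By number of fingers, the median log2 fold change was -0.32 for the 9 members with 0, -0.05 for the 51 with 1 to 5, 0.11 for the 89 with 6 to 10, 0.15 for the 106 with 11 to 15 and 0.26 for the 55 with more than 15. Median GC content ran the other way from 1 finger upward, at 49.6%, 46.1%, 43.0% and 40.3% in the same 4 classes. All 3 members past the threshold carry a KRAB box.

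Base composition moved with this difference. Transcripts of members with a KRAB box had a median GC content of 41.4%, against 50.7% in members without one and 50.3% in all genes with an annotated transcript. Under 48% GC, the median log2 fold change was 0.28 in 139 members with a KRAB box, 0.22 in 48 without, and 0.17 in all 4737 such genes of the table. At 48% or more it was -0.05 in 37 members with a KRAB box, -0.17 in 86 without, and -0.11 in all 7875 such genes. The correlation of log2 fold change with GC content was -0.66 (Spearman) across 311 members and -0.55 across 12612 genes of the table; genes of the same 6 libraries share those libraries' trends and are not independent replicates. When each library was corrected for its trend on GC content and transcript length, the family median became 0.04 with 181 members above 0, beside a median of 0.03 and 55.0% of all genes. The Spearman correlation with GC content became -0.25 across members and -0.0028 across all genes, so a trend remained within the family. The KRAB median became 0.06 with 112 above 0, and that of members without a KRAB box 0.0033. The same 3 members passed edgeR's threshold under the correction, and 0 were lower, where 0.344% and 0.187% of all genes were called.

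**Figure D1:**
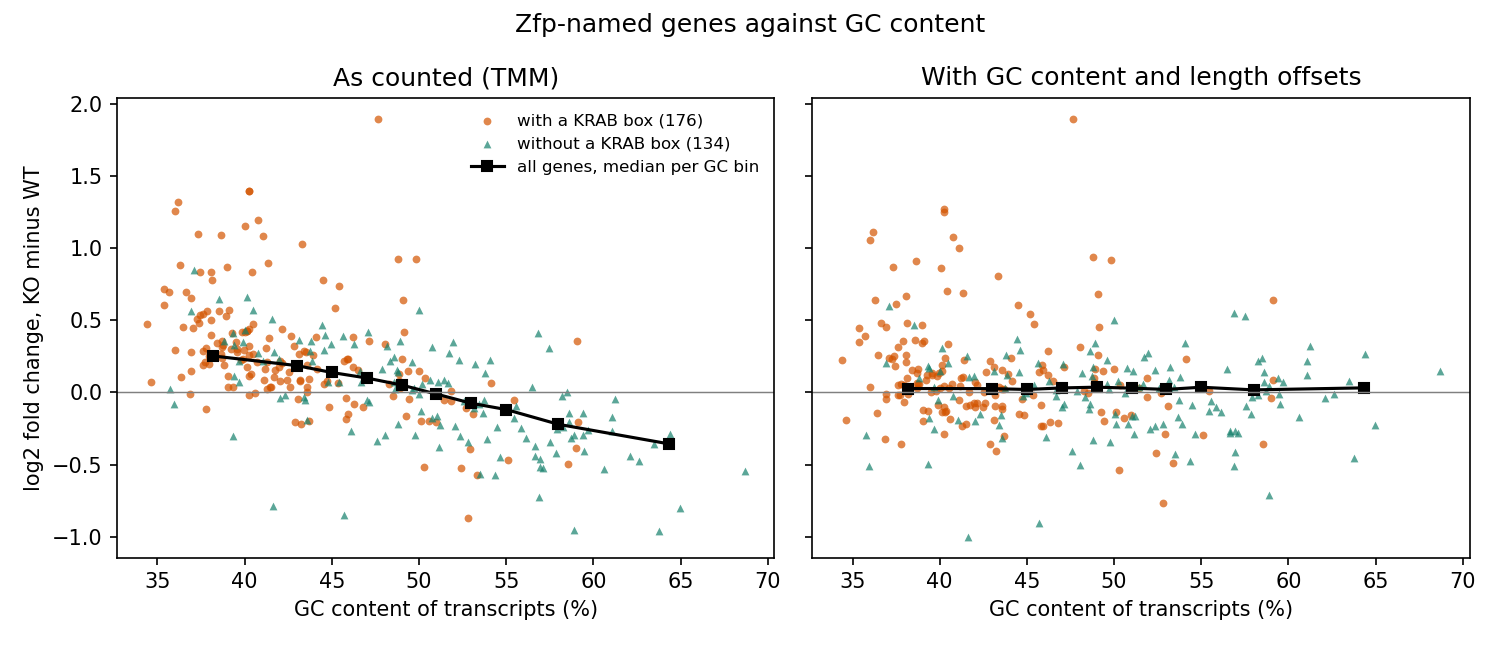
Log2 fold change (KO minus WT) of members with a KRAB box (circles) and without one (triangles) against the GC content of their transcripts in percent, before (left) and after (right) correction of each library for GC content and length. Black squares are medians of all genes in GC bins, and they run from 0.25 in the lowest bin to -0.36 in the highest before the correction and stay between 0.02 and 0.04 after it.

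The libraries differed in this trend within a genotype as well as between genotypes. Members with a KRAB box deviated from their own mean log2 CPM by a median of 0.18, 0.07 and 0.16 in KO replicates 1 to 3, and by -0.25, 0.11 and -0.24 in WT replicates 1 to 3. WT replicate 2 therefore lay within the range of the KO libraries, and the genotypes overlapped. All genes under 48% GC showed the same order, with 0.13, 0.03 and 0.11 in the KO libraries, against -0.18, 0.05 and -0.14 in the WT libraries. After the correction the KRAB medians were 0.07, -0.02 and 0.12 in the KO libraries and -0.01, -0.0028 and -0.08 in the WT libraries. Whether the trend belongs to the RNA, the libraries or the animals was not tested.

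**Figure D2:**
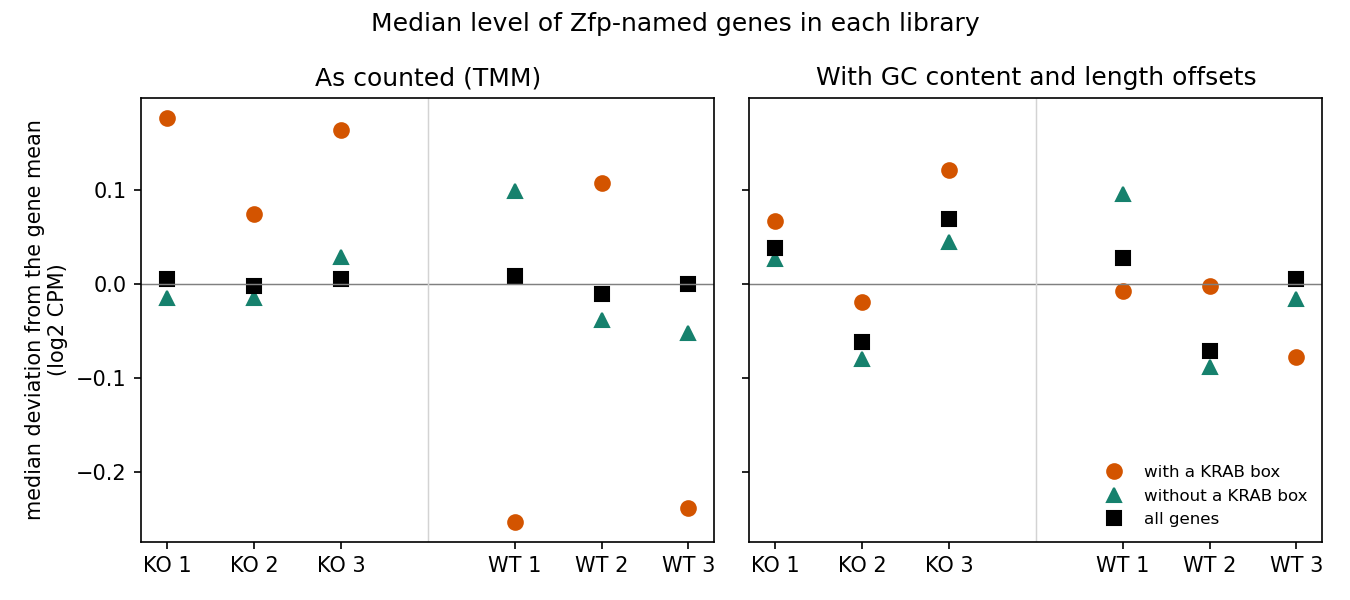
Median deviation of log2 CPM from each gene's mean over the 6 libraries, by library, for members with a KRAB box (circles), members without one (triangles) and all genes (squares), before (left) and after (right) correction for GC content and length. Before the correction the KRAB medians of WT replicates 1 and 3 lie at -0.25 and -0.24, while WT replicate 2 lies at 0.11, among the KO libraries.

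The 3 leading members lay well above the family median, and they were chosen for that. Zfp369, also known as Nrif2 for its relation to Zfp110 (Nrif), a partner of the p75 neurotrophin receptor, had 6.04, 3.54 and 7.45 CPM in KO ventricles, against 1.19, 1.86 and 1.51 CPM in WT ventricles. Every KO value lay above every WT value, and the log2 fold change was 1.89 (SE 0.31), unchanged at 1.89 with the GC correction. Its relative Zfp110 had 25.5, 26.2 and 25.9 CPM in KO ventricles, against 22.6, 24.4 and 22.9 CPM in WT ventricles, with a log2 fold change of 0.15 (SE 0.13) and groups that narrowly did not overlap. The other genes of the table that start within 1 Mb of Zfp369, Ctsl, Cdk20 and Mfsd14b, had log2 fold changes of -0.02, -0.17 and 0.14 with overlapping groups.

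Zfp968, a KRAB protein with 11 fingers, had 6.70, 5.49 and 7.01 CPM in KO ventricles, against 2.55, 2.48 and 2.26 CPM in WT ventricles. The mean was 6.40 ± 0.80 in KO and 2.43 ± 0.15 in WT (SD, n = 3 each), and the log2 fold change was 1.40 (SE 0.22). Zfp970, with 14 fingers, had 107, 94.9 and 132 CPM in KO ventricles, against 42.6, 55.4 and 48.2 CPM in WT ventricles, a log2 fold change of 1.19 (SE 0.15). It is the more abundant by far: per kilobase of exon, Zfp970 averaged 36.9 CPM over the 6 libraries and Zfp968 1.45. With the GC correction the log2 fold changes were 1.25 for Zfp968 and 1.08 for Zfp970. All 50-base words of the Zfp968 coding sequence, and 57.1% of those of Zfp970, also occur in transcripts of other genes, so part of the Zfp968 count could stem from reads of a copy. Adjusted p-values, which chose these members, were 0.0139 for Zfp970, 0.0362 for Zfp968 and 0.0378 for Zfp369 (edgeR); the members just outside the threshold were Zfp445 at 0.0726, Zfp612 at 0.0781 and Zfp965 at 0.0841.

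**Figure D3:**
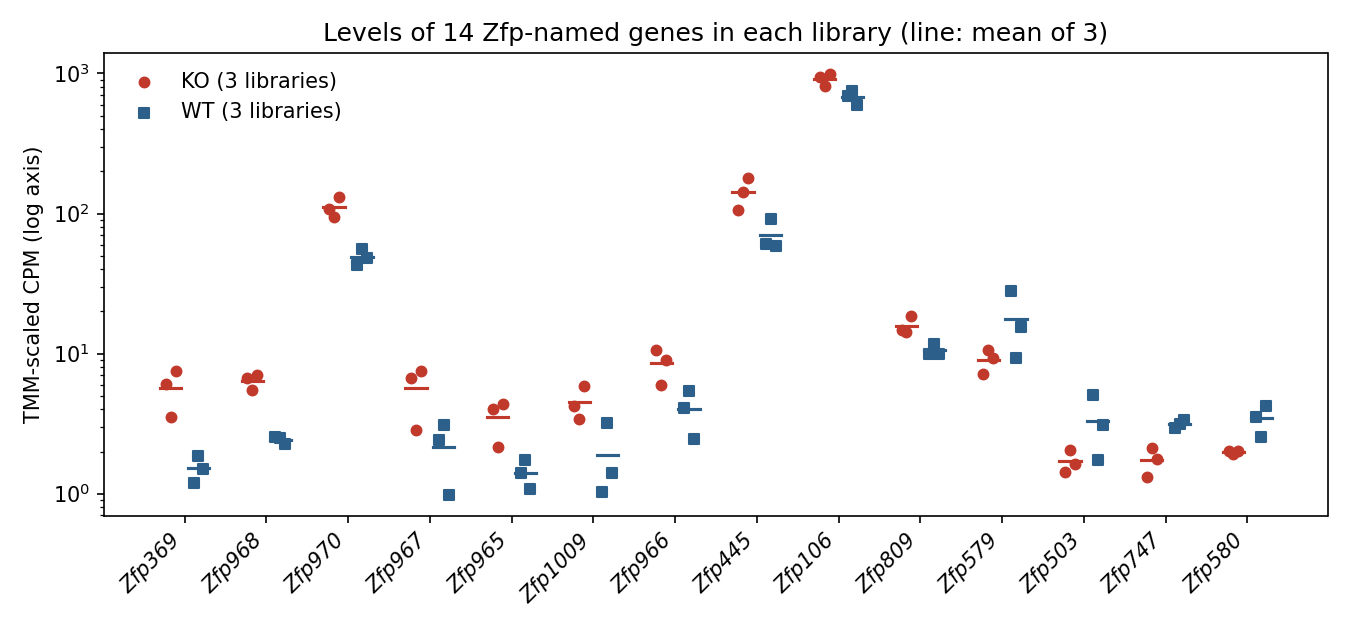
TMM-scaled CPM (log axis) of 14 members in each library, with 3 KO libraries (circles, left) and 3 WT libraries (squares, right) for each gene and a line at each mean. Zfp369, Zfp968, Zfp970, Zfp965, Zfp1009, Zfp966, Zfp445, Zfp106 and Zfp809 have all KO values above all WT values, and Zfp747 and Zfp580 have all below.

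Zfp968 and Zfp970 are part of a large array of zinc-finger genes near the end of chromosome 2. The table held 21 genes between positions 175275125 and 178078476, of which 9 were members, grouped here after their values had been seen. All 9 had a log2 fold change above 0, where 49.4% of all genes did, between 0.47 and 1.40 with a median of 1.19. In 8 every KO value lay above every WT value, where 11.8% of all genes did so. The 9 include Zfp968 and Zfp970, which were chosen by their adjusted p-values. Zfp965 had 4.002, 2.16 and 4.37 CPM in KO ventricles, against 1.40, 1.75 and 1.08 CPM in WT ventricles (log2 fold change 1.32, SE 0.33). Zfp966 had 10.6, 5.99 and 9.04 CPM in KO ventricles, against 4.12, 5.43 and 2.46 CPM in WT ventricles (1.10, SE 0.29). For Zfp1009 the values were 4.21, 3.41 and 5.91 CPM in KO ventricles, against 1.03, 3.22 and 1.41 CPM in WT ventricles (1.26, SE 0.39). In the last of these WT replicate 2 came close to the lowest KO value.

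Zfp967 was the member there whose groups overlapped, with 6.66, 2.87 and 7.50 CPM in KO ventricles, against 2.43, 3.10 and 0.983 CPM in WT ventricles (1.40, SE 0.44). Zfp973 (1.08), Zfp971 (0.83) and Zfp931 (0.47) completed the set. Per library, the 9 members deviated from their means by a median of 0.75, 0.13 and 0.82 in KO replicates 1 to 3, and by -0.60, -0.05 and -0.91 in WT replicates 1 to 3, so the genotypes did not overlap but KO replicate 2 and WT replicate 2 lay close together. Leaving out single libraries moved the median between 1.03 and 1.42, and the GC correction gave 1.06.

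The 12 other genes of the same stretch, 11 of them with a KRAB box, did not stand as high. Those 11 had a median log2 fold change of 0.40, between -0.09 and 0.59. In 2 of them all KO values lay above all WT values, where 11.8% of all genes did so. The GC correction gave a median of 0.20. Gm14288, which has no finger in its coding model, was the exception with 8.29, 6.87 and 11.3 CPM in KO ventricles, against 2.39, 5.31 and 2.29 CPM in WT ventricles (1.41, SE 0.32). Gm14325, one of the more abundant, had 25.3, 22.7 and 24.4 CPM in KO ventricles, against 16.2, 24.5 and 14.1 CPM in WT ventricles (0.40, SE 0.19), and its groups overlapped. The 61 genes within 5 Mb on either side of the stretch had a median of -0.06, with 19 above 0. Members and the other KRAB genes lie intermingled along the stretch, and no test of the difference between them was made. In 6 of the 9 members every coding 50-base word also occurs in transcripts of other genes, and how reads of such shared stretches were divided is not known here. One of the 6, Zfp973, overlaps Gm14305 on the map, so its shared words need not mark a separate copy.

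**Figure D4:**
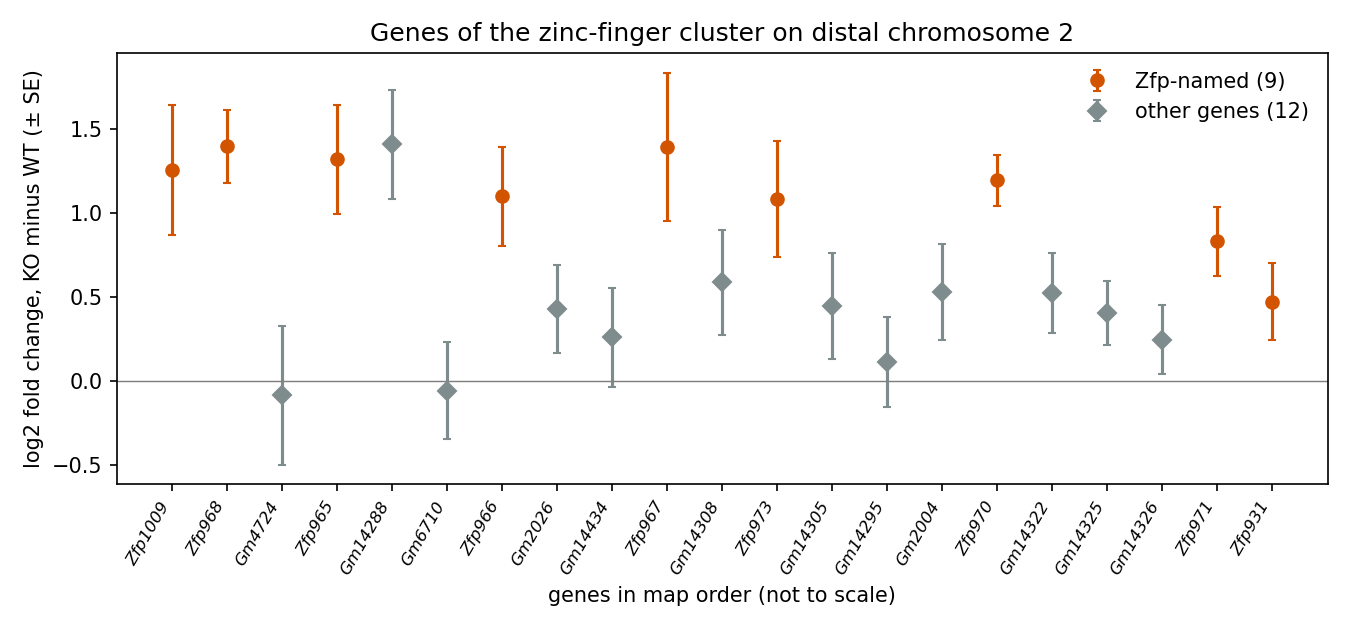
Log2 fold change (KO minus WT, ± SE) of the 21 genes of the zinc-finger array near the end of chromosome 2, in map order and not to scale, with Zfp-named genes as circles and other genes as diamonds. The 9 members lie between 0.47 and 1.40, and the other genes between -0.09 and 0.59 except Gm14288 at 1.41.

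Clusters set by distance alone ran in both directions. With at least 3 members and start-to-start gaps of at most 500 kb, 27 clusters held 172 of the 311 members with a position. Their median log2 fold change was 0.20, against 0.06 in the 139 members outside. The rule split the array of distal chromosome 2. Zfp1009, Zfp968, Zfp965 and Zfp966 counted as a cluster, while Zfp967, Zfp973, Zfp970, Zfp971 and Zfp931 fell outside. The 20 members of the cluster at chromosome 17 between positions 21008903 and 23599487 had a median of 0.32, 18 of them above 0, at a median GC content of 38.2%. A cluster of 6 on chromosome 4 (147132038 to 147848366) had a median of 0.37 with all 6 above 0, at 36.2% GC; with the GC correction these medians were 0.13 and 0.15. At the other end, 6 members without a KRAB box on chromosome 7 (4915217 to 5053723), at 61.2% GC, had a median of -0.41 with all 6 below 0, and -0.23 with the correction. The 10 members on chromosome 7 between 127233061 and 127885996 had a median of -0.32, and -0.0020 with the correction. Zfp771, whose finger is printed above, belongs to the last of these and had 15.8, 16.1 and 14.5 CPM in KO ventricles, against 20.95, 18.1 and 28.6 CPM in WT ventricles. Its groups did not overlap, and its log2 fold change was -0.55 (SE 0.17) as counted and 0.15 with the correction. On chromosome 11, where RefSeq places Cygb, 12 members had a median of 0.07, between -0.42 and 0.36, with 8 above 0.

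Of 12 KRAB genes listed for the silencing of retroelements or the keeping of imprints, 8 were measured. Their median log2 fold change was 0.28 with 6 above 0, and 0.12 with the GC correction. Zfp445, which keeps imprints in mouse and human embryos together with Zfp57, had 107, 143 and 180 CPM in KO ventricles, against 60.2, 91.8 and 58.3 CPM in WT ventricles. The KO values all lay above the WT values, and the log2 fold change was 1.03 (SE 0.22), or 0.80 with the correction. Zfp809, which silences retroviruses by binding their primer binding site, had 14.7, 14.3 and 18.4 CPM in KO ventricles, against 9.96, 11.8 and 9.99 CPM in WT ventricles. This too was free of overlap, with a log2 fold change of 0.58 (SE 0.16), or 0.55 with the correction. Zfp568, a repressor of a placental Igf2 transcript, had a log2 fold change of 0.35, Zfp57 of -0.18 and Zfp708 of -0.11, each with overlapping groups. edgeR called 0 of the 8; 3 had an unadjusted p under 0.05, all higher (10.2% of all genes were so), DESeq2 called Zfp445 and Zfp809 (2.68% of its genes were called higher), and limma-voom called 0. These shares of all genes are the background for the calls in the lists that follow too.

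The corepressor machinery that KRAB proteins work through was measured in full, 26 of 26 genes. The median log2 fold change was 0.12 with 17 above 0, and edgeR called 0; 7 had an unadjusted p under 0.05 and were higher, and 1 was lower, where 10.2% and 8.94% of all genes were so. DESeq2 called Mbd1, Atf7ip and Atrx higher, 3 of 26 where it called 2.68% of its genes higher, and limma-voom called 0. Trim28, the protein to which the KRAB box binds, had 51.95, 54.5 and 48.2 CPM in KO ventricles, against 70.6, 52.1 and 72.7 CPM in WT ventricles. WT replicate 2 lay among the KO values, and the log2 fold change of -0.34 (SE 0.15) became -0.04 with the GC correction. Setdb1, the methyltransferase of the complex, had a log2 fold change of 0.30 (SE 0.17) with overlapping groups. Its partner Atf7ip had 53.4, 58.1 and 71.0 CPM in KO ventricles, against 44.3, 34.5 and 29.2 CPM in WT ventricles, without overlap (0.76, SE 0.17). Cbx1, Cbx3 and Cbx5, the heterochromatin proteins that bind the methylated histone, had log2 fold changes of -0.13, -0.01 and 0.35, and their groups overlapped.

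A list drawn up for regulators of heart muscle, fibroblasts and fat cells held 10 members. Some of them, such as Zfp106 and Zfp697, are described below from other tissues. Of the 10, 3 had a log2 fold change above 0 and 7 below. The median was -0.21, or -0.15 with the GC correction. The list has a median GC content of 53.5%, and of all genes at 48% GC or more 33.9% lay above 0. In 2 of the 10 all KO values lay above all WT values, and in 0 all lay below, where 11.8% and 10.5% of all genes did so. Zfp106, an RNA-binding protein needed for the upkeep of nerve and skeletal muscle, was the most abundant member with 942, 807 and 991 CPM in KO ventricles, against 693, 755 and 599 CPM in WT ventricles. Its groups did not overlap, and the log2 fold change was 0.42 (SE 0.14), or 0.20 with the correction. Zfp260, a transcription factor of heart muscle cells, had 40.7, 30.9 and 32.6 CPM in KO ventricles, against 23.9, 37.8 and 24.0 CPM in WT ventricles, and WT replicate 2 lay within the KO range (0.28, SE 0.19). Among regulators of fat cell fate, Zfp423 had a log2 fold change of -0.37 (SE 0.29), Zfp467 of -0.25 (SE 0.22) and Zfp521 of -0.13 (SE 0.15), with overlapping groups in each case.

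Zfp697, known from skeletal muscle repair, had 11.03, 14.9 and 14.3 CPM in KO ventricles, against 12.1, 22.1 and 11.3 CPM in WT ventricles (-0.17, SE 0.24). Zfp703, a transcriptional corepressor, had 13.4, 11.8 and 13.5 CPM in KO ventricles, against 23.5, 12.4 and 20.2 CPM in WT ventricles. WT replicate 2 again lay among the KO values (-0.53, SE 0.21), and the GC correction left -0.17. edgeR, DESeq2 and limma-voom each called 0 of the 10, and at an unadjusted p under 0.05 edgeR counted 1 higher and 2 lower.

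General transcription regulators without a KRAB box were spread evenly, with 6 of 10 above 0 and a median of 0.05. Zfp143, a promoter factor of small RNA genes, had a log2 fold change of 0.07, Zfp384 of -0.08 and Zfp410, an activator of Chd4, of 0.02. Zfp281 was the member of the list whose groups did not overlap, with 16.2, 15.3 and 17.2 CPM in KO ventricles, against 10.9, 13.4 and 13.7 CPM in WT ventricles (0.36, SE 0.15). Zfp219 had 27.4, 27.8 and 26.3 CPM in KO ventricles, against 45.4, 27.7 and 37.8 CPM in WT ventricles. Here WT replicate 2 lay within the KO range (-0.44, SE 0.17), and with the GC correction the value was -0.04. Zfp148 had a log2 fold change of 0.35 as counted and -0.05 with the correction.

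Partners of chromatin complexes had a median of 0.18 with 7 of 8 above 0, and 0.13 with the GC correction. Zfp644, a partner of histone methyltransferases, had 28.1, 27.5 and 29.4 CPM in KO ventricles, against 18.0, 23.6 and 18.0 CPM in WT ventricles (0.51, SE 0.15). Zfp592, which joins the reader Zmynd8 together with Zfp687 and Zfp532, had 39.1, 36.2 and 40.2 CPM in KO ventricles, against 32.7, 30.5 and 27.5 CPM in WT ventricles (0.35, SE 0.13). Neither gene's groups overlapped, whereas those of Zfp687 (0.03), Zfp532 (0.09), Zfp217 (0.27) and Zfp516 (0.14) did. edgeR, DESeq2 and limma-voom called 0 of the general regulators and 0 of the chromatin partners; at an unadjusted p under 0.05 edgeR counted 3 higher and 1 lower of the general regulators, and 2 higher and 0 lower of the chromatin partners.

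RNA-binding and splicing members had a median of 0.29 with 6 of 8 above 0, and 0.14 with 5 above 0 with the GC correction. The list has a median GC content of 44.4%, and of all genes under 48% GC 75.7% lay above 0. Zfp638, a splicing cofactor, had 56.4, 39.5 and 54.5 CPM in KO ventricles, against 28.0, 41.3 and 25.9 CPM in WT ventricles. The 2 ranges overlapped through KO replicate 2 and WT replicate 2 (0.66, SE 0.19; 0.30 with the GC correction), and DESeq2, but neither edgeR nor limma-voom, called it. Zfp346, a binder of double-stranded RNA, ran the other way with 26.8, 28.5 and 23.1 CPM in KO ventricles, against 30.1, 30.6 and 35.9 CPM in WT ventricles (-0.30, SE 0.14). Zfp36 (tristetraprolin), which drives the decay of cytokine mRNAs, had 29.0, 56.5 and 28.4 CPM in KO ventricles, against 36.9, 28.2 and 32.6 CPM in WT ventricles, and KO replicate 2 alone stood high (0.22, SE 0.25). Zfp326 (-0.05), Zfp318 (0.33) and Zfp830 (0.24) are linked to splicing or RNA handling.

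Members tied to ribosomes and protein turnover had a median of -0.04 with 3 of 7 above 0. Zfp598, a ubiquitin ligase that senses collided ribosomes, had 26.01, 30.3 and 27.5 CPM in KO ventricles, against 38.8, 30.6 and 33.4 CPM in WT ventricles. The groups were separated by the gap between KO replicate 2 and WT replicate 2 (-0.29, SE 0.14), and the GC correction gave -0.01. The ribosome assembly genes Zfp622 and Zfp593 had log2 fold changes of -0.23 (SE 0.13) and -0.73 (SE 0.36), the ubiquitin ligase Zfp91 of 0.03 and Zfp277 of 0.23, all with overlapping groups. edgeR called 0 of these 7 and 0 of the 8 RNA-binding members; at an unadjusted p under 0.05 the counts were 0 and 4, the 4 all higher. DESeq2 and limma-voom called 0 of the 7.

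**Figure D5:**
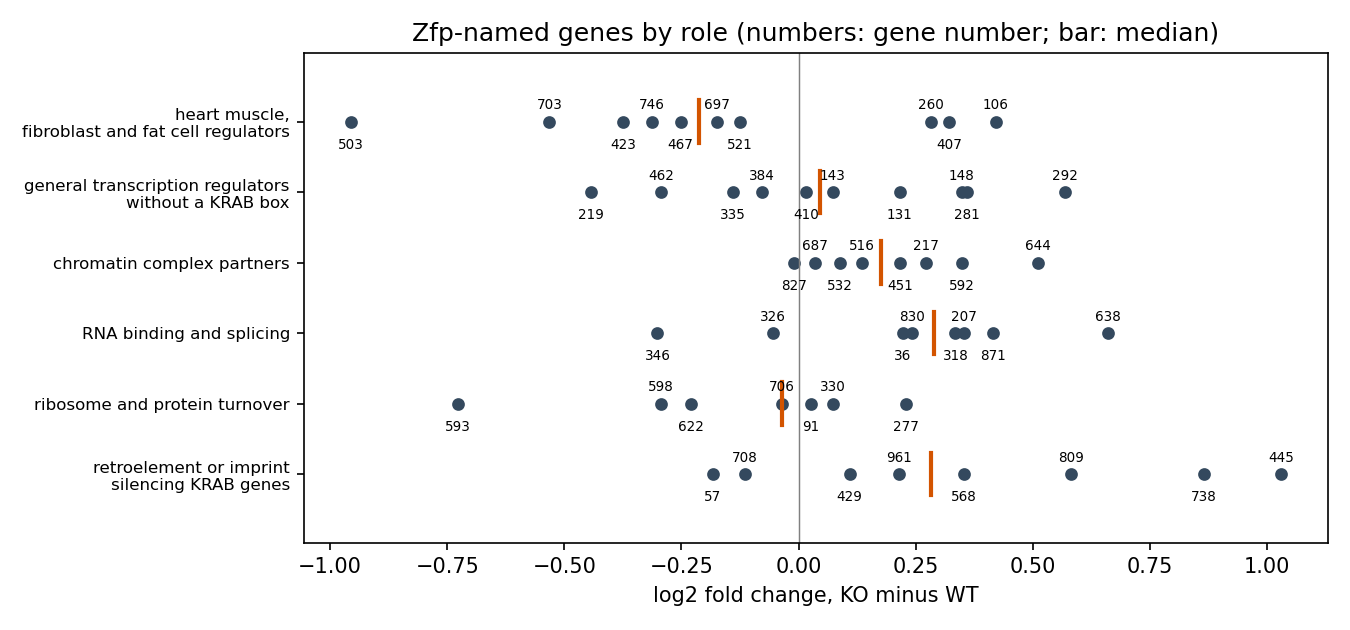
Log2 fold change (KO minus WT) of members in 6 lists of known roles, each point a gene labelled with its Zfp number and each bar the median of its list. The medians as counted run from -0.21 for the list of heart muscle, fibroblast and fat cell regulators to 0.29 for RNA-binding and splicing members. With the GC correction, which is not drawn, the medians of these lists were -0.15 and 0.14.

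The members with the lowest fold changes were of mixed kinds. Zfp579 had 7.11, 10.6 and 9.35 CPM in KO ventricles, against 28.1, 9.30 and 15.4 CPM in WT ventricles, with WT replicate 2 inside the KO range (-0.96, SE 0.38; -0.46 with the GC correction). Zfp503, a developmental corepressor, had 1.43, 2.04 and 1.63 CPM in KO ventricles, against 5.11, 1.75 and 3.08 CPM in WT ventricles, and WT replicate 2 lay within the KO range (-0.96, SE 0.37). Zfp747, the only KRAB gene among the 6 lowest, had 1.31, 2.12 and 1.76 CPM in KO ventricles, against 2.96, 3.14 and 3.38 CPM in WT ventricles. Its groups did not overlap (-0.87, SE 0.27; -0.76 with the correction). Zfp580 (-0.80, SE 0.27) and Zfp449 (-0.79, SE 0.26) also had all KO values below all WT values, and with the correction they stood at -0.23 and -0.9996. Zfp185, an actin-binding LIM protein, had 1.31, 1.46 and 1.06 CPM in KO ventricles, against 1.32, 3.92 and 1.67 CPM in WT ventricles, so that its value of -0.85 (SE 0.40) followed WT replicate 2. DESeq2 called Zfp579 lower, and neither edgeR nor limma-voom called any of the 6.

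Levels per length placed the family low in the ventricle. The median over members was 1.55 CPM per kilobase of exon, against 4.07 over all genes, and it was 1.08 with a KRAB box and 2.55 without. The highest were Zfp106 (76.5), Zfp970 (36.9), Zfp706 (18.0), Zfp768 (17.1), Zfp869 (15.1) and Zfp445 (14.4), and the lowest member stood at 0.150. Zfp706, Zfp768 and Zfp869 had log2 fold changes of -0.04, -0.26 and 0.09 with overlapping groups, and Zfp768 stood at 0.07 with the GC correction.

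The spread between mice was larger in WT than in KO for most members, as it was for most genes. The SD of log2 CPM had a median of 0.18 over members in KO and 0.28 in WT, and it was larger in WT for 224 of 313 members (71.6%) and for 66.1% of all genes. Zfp366, Zfp626, Zfp738, Zfp967 and Zfp1009 had the largest spreads among WT mice. Zfp366 had 8.66, 12.03 and 9.70 CPM in KO ventricles, against 9.88, 8.22 and 2.49 CPM in WT ventricles, so WT replicate 3 stood low. Zfp738 had 5.47, 4.49 and 5.91 CPM in KO ventricles, against 1.36, 4.61 and 2.72 CPM in WT ventricles, and Zfp626 had 3.23, 3.66 and 5.38 CPM in KO ventricles, against 1.94, 3.64 and 1.05 CPM in WT ventricles. In both, WT replicate 2 lay within the KO range.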

How the data were processed

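Per the labels, each library is polyadenylated RNA of 1 left ventricle. The authors deposited whole-number counts per gene; the submitters' processing notes name mm10 and DESeq2. No aligner, counter, annotation or strand setting is named in the sources used here, so reads of a gene and of an overlapping antisense gene cannot be told apart. Totals were 23190864 to 30354857 counts. All 13384 genes, each at 0.507 CPM or more in every library, were fitted in edgeR 4.0.16 (R 4.3.3; TMM, robust quasi-likelihood, two-sided, Benjamini-Hochberg over all genes, threshold 0.05), 3 KO against 3 WT libraries without covariates; the tool's filter on low counts removed none. The common biological coefficient of variation was 0.166. The fit was tested on simulated counts. DESeq2 1.42.0, limma 3.58.1, other size factors and filters, and each library left out were alternatives. Log2 fold changes are KO minus WT, and SE comes from the test statistic.

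Transcript GC content and length were taken from GENCODE M21 (GRCm38) for 94.2% of genes and 99.4% of members and entered as spline offsets (4 degrees of freedom) in 1 alternative. Fingers were counted in the longest coding model and KRAB boxes searched by pattern in the first 250 residues. Boxes missed by the pattern were not looked for. Of 367 protein-coding Zfp-numbered genes in RefSeq GRCm38.p6, 310 were in the table.

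Members, gene lists and the rule for named genes were chosen with earlier results of these data known. The rule names the 3 leading members, others past the threshold, the 6 highest and 6 lowest with a mean of at least 1 CPM, the 6 of highest level per length, the 5 of largest WT spread, cluster neighbours of the 3, and up to 6 per list. Members of distal chromosome 2, other clusters, Zfp110, Zfp771, Zfp612 and further list members were named after their values were seen. Zfp871 stands in the RNA-binding list although its role is uncertain.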

Additional observations from a re-analysis of the deposited data

How the results depend on the processing

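The 3 members called higher and the 0 called lower (edgeR) were also found with RLE or upper quartile size factors, without a filter, with at least 1 CPM in every library and with GC content and length offsets. Without robust estimation, and in limma-voom, Zfp369 was lost and 2 were left. DESeq2 called 14 higher and 1 lower. Deviations of same-numbered libraries from their group means correlated at -0.12, -0.08 and -0.15 over 13384 genes. With 3 libraries a group, whose deviations sum to 0, these values cannot decide whether replicate numbers paired the libraries. With the replicate number as a block 6 members were higher, among 131 genes of the table (median log2 fold change 0.14), and with the block and the offsets 1 was (median 0.0364). Leaving out 1 library gave 0 to 42 members higher, 0 to 14 lower, a family median of 0.0719 to 0.233 and 185 to 214 members above 0. The family median was 0.0421 with the offsets, and 0.0553 with 81 above 0 without the members in clusters. The members left there still include Zfp967, Zfp973, Zfp970, Zfp971 and Zfp931 of distal chromosome 2. With the offsets and without WT replicate 2, an alternative chosen after seeing the data, 6 members were higher and 3 lower, where 178 and 199 of 13384 genes were, and the median was 0.0386 (all genes 0.0098). Of 60 named genes, 7 took the opposite sign under the offsets, among them Zfp148, Zfp318 and Zfp768, all of them without a call. The cause of these differences was not tested. With 3 mice a group, members of a few CPM have wide errors, and no group was large enough to search for outlying libraries.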
